A study of Mus musculus with 12 samples.

Results

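Epas1 and Hif1a, which encode the HIF-2α and HIF-1α subunits of the hypoxia inducible factors, were followed with 6 genes of the same pathway in RNA-seq data of bone marrow-derived macrophages (BMMs) of mice. The 8 genes, Epas1, Hif1a, Arnt, Egln1, Egln3, Vhl, Vegfa and Bnip3, were taken by symbol from the 24421 genes that every sample lists, and all 8 passed the filter on low values. The set was chosen by the rise of Epas1, the most raised gene called in Mir182mTg BMMs, so its level there is a description and not a test. All mice were C57BL/6 and all carried LysMcre, a Cre recombinase under the myeloid lysozyme M promoter, so the controls express Cre as well. The loss of function experiment compared WT BMMs (Mir182+/+LysMcre(+)) with Mir182ΔM/ΔM BMMs (Mir182flox/floxLysMcre(+)), in which the floxed Mir182 gene is removed where Cre is active. Both were grown with M-CSF for 3 days and then given no RANKL (basal) or RANKL for 5 days. The gain of function experiment compared Control BMMs (LysMcre(+)) with Mir182mTg BMMs (LSL-Mir182LysMcre(+)), which gain Mir182 after Cre removes a stop cassette, both grown with M-CSF and given no RANKL. Each of the 6 conditions had 2 replicates, 12 libraries in all, and the ages of the mice are not given in the labels.

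In cells with enough oxygen, prolyl hydroxylases such as those encoded by Egln1 and Egln3 mark HIF-α proteins, the ubiquitin ligase subunit encoded by Vhl binds the marked protein, and it is degraded. In low oxygen the α subunit is kept, pairs with the β subunit encoded by Arnt and switches on genes with a hypoxia response element. Most of this control acts on protein, which mRNA values do not show. In macrophages HIF-1α is best known for glycolysis and inflammatory genes. M-CSF and RANKL drive the change of BMMs into osteoclasts, the cells that resorb bone.

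Between 24951280 and 33050619 reads fell on genes in each library, so a value made of 3 reads is 0.0908 to 0.120 CPM (counts scaled to a fixed total of reads on genes). All 9 macrophage markers were detected in every library, and all 10 osteoclast markers were higher after RANKL than before it in WT BMMs. Their summed level was 123 to 181.9 CPM in the 8 libraries without RANKL, 10643 and 10857 CPM in WT after RANKL, and 3285 and 3254 CPM in Mir182ΔM/ΔM after RANKL. Lyz2, the lysozyme M gene into which the LysMcre allele is inserted, set WT after RANKL apart from the other conditions of its experiment. It was at 4117 and 4288 CPM in WT after RANKL, against 44.0 and 39.8 CPM in WT basal, 34.6 and 31.2 CPM in Mir182ΔM/ΔM basal, and 24.0 and 22.5 CPM in Mir182ΔM/ΔM after RANKL. In the gain of function experiment it was at 5783 and 6615 CPM in Control and 6338 and 7062 CPM in Mir182mTg. The labels do not say how many LysMcre copies a mouse had. Every comparison with WT after RANKL therefore also compares libraries with different Lyz2 levels, and the part of this difference in the results was not tested. The fold changes for RANKL in Mir182ΔM/ΔM and for the basal comparison do not use those libraries, but their p-values do, since all 8 libraries share 1 estimate of the spread. Replicate 1 and replicate 2 libraries also differed in the labelled starting RNA, and the ribosomal transcript Rn45s was at 742 to 1176 CPM in the former and 9778 to 21273 CPM in the latter. Reads on the Mir182 hairpin were 79 and 123 in Mir182mTg and 0 in both Control libraries. They were 1 in one Mir182ΔM/ΔM basal library and 0 in the other 7 libraries of the loss of function experiment, WT included, so they do not check the deletion.

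The seed of miR-182, the stretch by which it would pair with a target, is bases 2 to 8. It is shown in capitals below in the mature strand of RefSeq (GRCm38.p6, chr6:30165962-30165986, minus strand). The matching 8 bases, TTGCCAAA (the complement of the seed followed by A), were searched in the longest 3′ UTR of each gene in GENCODE vM21 of GRCm38, the build also called mm10. One such match was found in Epas1 (chr17:86831515-86831522, plus strand), in Egln1 (chr8:124909441-124909448, minus strand) and in Bnip3 (chr7:138891165-138891172, minus strand), and none in the other 5 genes. The match is shown in capitals in each gene's 3′ UTR.
miR-182-5p: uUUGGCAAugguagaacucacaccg
Epas1: tgttcttgTTGCCAAAgagaaaa
Egln1: cttgatctTTGCCAAAatgtgtg
Bnip3: caaaatctTTGCCAAAtccactg
The same 8 bases occur in 4.41% of the 19488 listed genes with an annotated 3′ UTR. A match of letters is not a binding site.

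The hypoxia response element has the core ACGTG or GCGTG, and both were searched on both strands from 250 bases before to 50 bases after the start of each gene in RefSeq (GRCm38.p6). Of 32851 such windows, 19.6% hold ACGTG, 32.4% hold GCGTG and 43.8% hold at least one of them. Bnip3, which encodes a mitochondrial protein of mitophagy and is a classic HIF target, had 2 matches to ACGTG and 3 to GCGTG. Its 2 ACGTG matches overlap on opposite strands. Egln1 had 1 of each, Egln3 had 1 ACGTG, Arnt had 1 GCGTG and Vhl had neither. Hif1a had 3 matches to ACGTG, of which 2 overlap on opposite strands. Vegfa had neither core at one listed start and 1 of each at the other. The windows around the ACGTG match nearest the start site in Bnip3 (chr7:138909597-138909625, minus strand), in Egln1 (chr8:124949306-124949334, minus strand) and in Hif1a (chr12:73907785-73907813, plus strand) are shown with the core in capitals, because these 3 members include a target, a sensor and an α subunit. Epas1 is not in the promoter table.
Bnip3: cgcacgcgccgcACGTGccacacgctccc
Egln1: gggccgtggtgtACGTGcagcgcgcgcgg
Hif1a: tggctgagagcaACGTGggctggggtggg
The cores are short and common, and a match says nothing of whether HIF binds there.

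Epas1 (chr17:86753700-86833410, plus strand) had the widest range of the 8 genes over the 6 conditions. In CPM it was 32.9 and 29.4 in WT basal, 8.46 and 6.77 in WT after RANKL, 39.9 and 35.1 in Mir182ΔM/ΔM basal, 6.31 and 5.39 in Mir182ΔM/ΔM after RANKL, 14.6 and 12.02 in Control, and 92.3 and 87.1 in Mir182mTg, for replicates 1 and 2. From high to low the order was Mir182mTg, Mir182ΔM/ΔM basal, WT basal, Control, WT after RANKL and Mir182ΔM/ΔM after RANKL, and no 2 neighbours in this order overlapped. Hif1a (chr12:73901375-73947530, plus strand) was 165 and 130 CPM in WT basal, 139 and 111 in WT after RANKL, 168 and 133 in Mir182ΔM/ΔM basal, 185 and 150 in Mir182ΔM/ΔM after RANKL, 192 and 147 in Control, and 181 and 152 in Mir182mTg. Every pair of neighbours in the order of Hif1a overlapped, and replicate 1 was the higher library in all 6 conditions. Exons of Hif1a overlap those of 2 other annotated genes, 1 of them antisense, and strand use in counting is not given in the sources used here, so reads of these genes cannot be told apart.

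**Figure D1:**
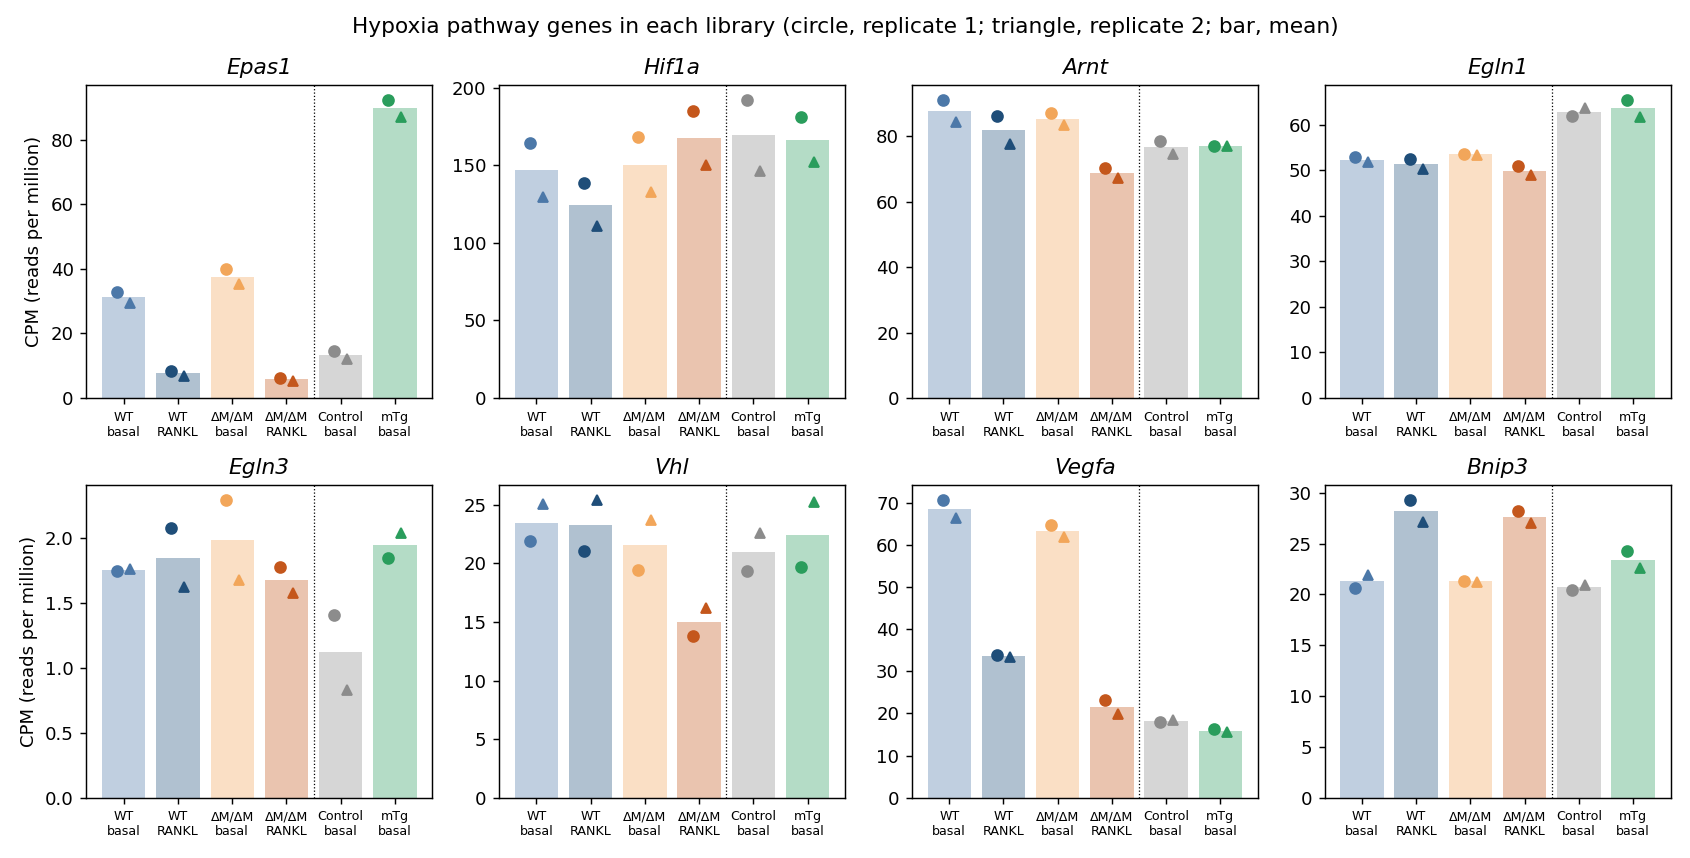
CPM of the 8 genes in each library, with the condition on the horizontal axis, replicate 1 as a circle, replicate 2 as a triangle and the mean of both as a bar (ΔM/ΔM, Mir182ΔM/ΔM; mTg, Mir182mTg; the dotted line separates the experiments). Epas1 ranges from 5.39 to 92.3 CPM and Vegfa from 15.6 to 70.7 CPM, while Egln1 stays between 48.9 and 65.5 CPM.

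Divided by the length that the files imply, Epas1 was the lower of the 2 α subunit mRNAs in all 12 libraries. Hif1a was at 23.2 to 40.3 CPM per kb and Epas1 at 1.01 to 17.2 CPM per kb. The ratio of Hif1a to Epas1 per kb was 5.63 and 4.95 in WT basal and 4.74 and 4.24 in Mir182ΔM/ΔM basal. After RANKL it was 18.4 in both WT libraries and 33.0 and 31.3 in Mir182ΔM/ΔM. It was 14.8 and 13.7 in Control and 2.21 and 1.96 in Mir182mTg, the lowest of the 6 conditions. Both terms of the ratio come from the same library, so it does not depend on library scaling.

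**Figure D2:**
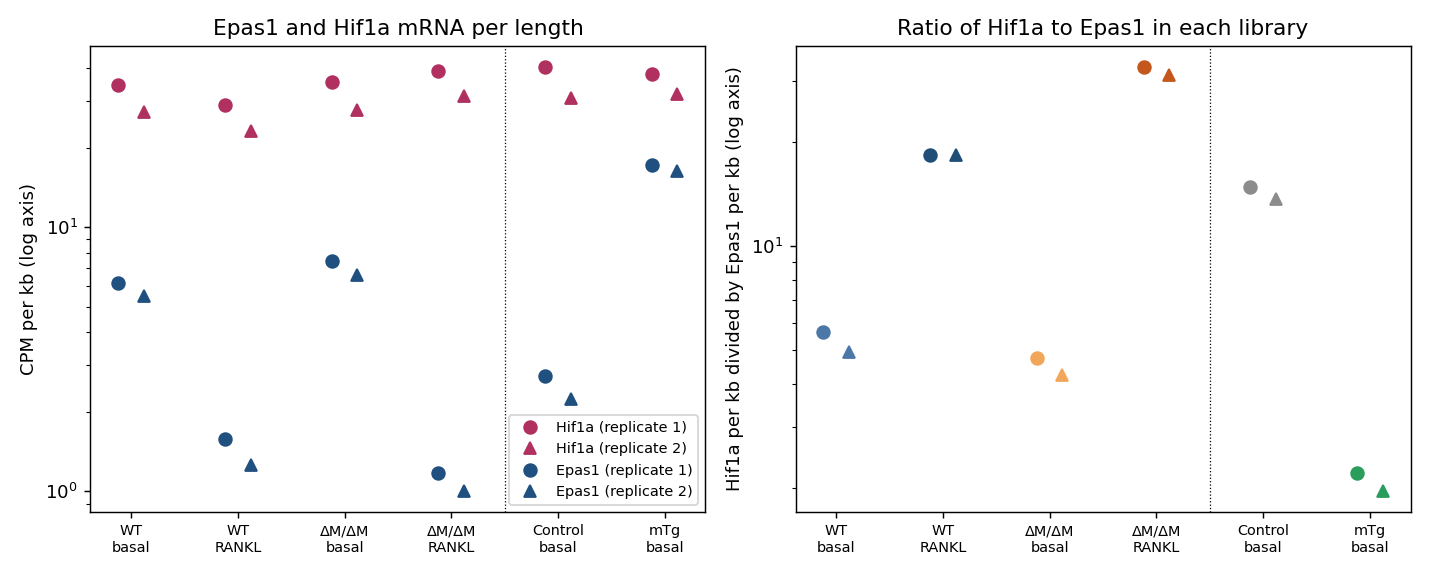
Left, CPM per kb of Hif1a and Epas1 in each library on a log axis. Right, the ratio of the 2 on a log axis, from 1.96 in Mir182mTg replicate 2 to 33.0 in Mir182ΔM/ΔM after RANKL replicate 1 (circle, replicate 1; triangle, replicate 2; dotted line, border between the experiments).

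Over the 12 libraries, with the mean of each replicate number taken out, the genes whose log2 CPM followed Epas1 most closely among 10275 genes were Fam212b (Pearson r 0.966), Treml1 (0.959), S100a8 (0.937), Ccng1 (0.937) and Ulbp1 (0.927). S100a8, which encodes a calcium binding protein abundant in neutrophils, was at 7.57 and 6.12 CPM in Control and 19.3 and 15.7 CPM in Mir182mTg, and at 12.7 and 10.7 CPM in WT basal and 3.67 and 3.53 CPM in WT after RANKL. For Hif1a they were Lonrf3 (0.981), Zdhhc18 (0.981), Diap1 (0.980), D330045A20Rik (0.972) and Stat6 (0.971). Epas1 and Hif1a themselves had an r of 0.243. These coefficients describe 12 libraries of 6 conditions and were not tested.

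In Mir182mTg BMMs, Epas1 was 6.74 times its mean in Control, and the other 7 genes differed by 1.74 times or less. Epas1 differed by 2.74 on the log2 scale with an SE of 0.12 in edgeR, from 13.3 ± 1.82 CPM in Control to 89.7 ± 3.70 CPM in Mir182mTg (SD, n = 2). Both Mir182mTg libraries were above both Control libraries, by 2.58 in replicate 1 and 2.76 in replicate 2 on the log2(CPM + 1) scale. It was the most raised of the 12 genes that edgeR called higher, and the next, Tmem181b-ps, had a log2 fold change of 1.69. By fold change alone it was the 12th of the 12063 genes tested. Of these genes 0.257% were called in either direction, 15.2% with the replicate number as a block, and Epas1 was the 1 gene of the 8 among them in both fits, as its choice fixed.

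Hif1a, the other α subunit, had a log2 fold change of -0.03 (SE 0.15), and Arnt, their partner, one of -0.00 (SE 0.08). Both had overlapping libraries. The oxygen sensor Egln1, which holds a match to the miR-182 seed, was at 62.0 and 63.8 CPM in Control and 65.5 and 61.8 CPM in Mir182mTg (log2 fold change 0.01, SE 0.08). The sensor Egln3 had few reads, 44 and 22 in Control and 61 and 57 in Mir182mTg, with 1.40 and 0.831 CPM against 1.85 and 2.04 CPM and a log2 fold change of 0.77 (SE 0.30). Vhl was at 19.4 and 22.6 CPM in Control and 19.7 and 25.2 CPM in Mir182mTg (log2 fold change 0.09, SE 0.16), with overlapping libraries.

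Vegfa (chr17:46016993-46032369, minus strand) encodes the angiogenic growth factor VEGF-A, a standard HIF target. It was at 18.0 and 18.4 CPM in Control and 16.3 and 15.6 CPM in Mir182mTg, with a log2 fold change of -0.20 (SE 0.09). Bnip3 (chr7:138890836-138909519, minus strand) was at 20.4 and 21.0 CPM in Control and 24.2 and 22.6 CPM in Mir182mTg, with a log2 fold change of 0.17 (SE 0.09). Neither gene had overlapping groups. In all, 4 of the 8 genes, Epas1, Egln3, Vegfa and Bnip3, did not overlap, which was so for 32.2% of all genes tested. The 8 tested genes that lie at least in part within 500 kb of Epas1 had log2 fold changes between -0.23 and -0.01. Of these 8 genes, edgeR called 0.

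**Figure D3:**
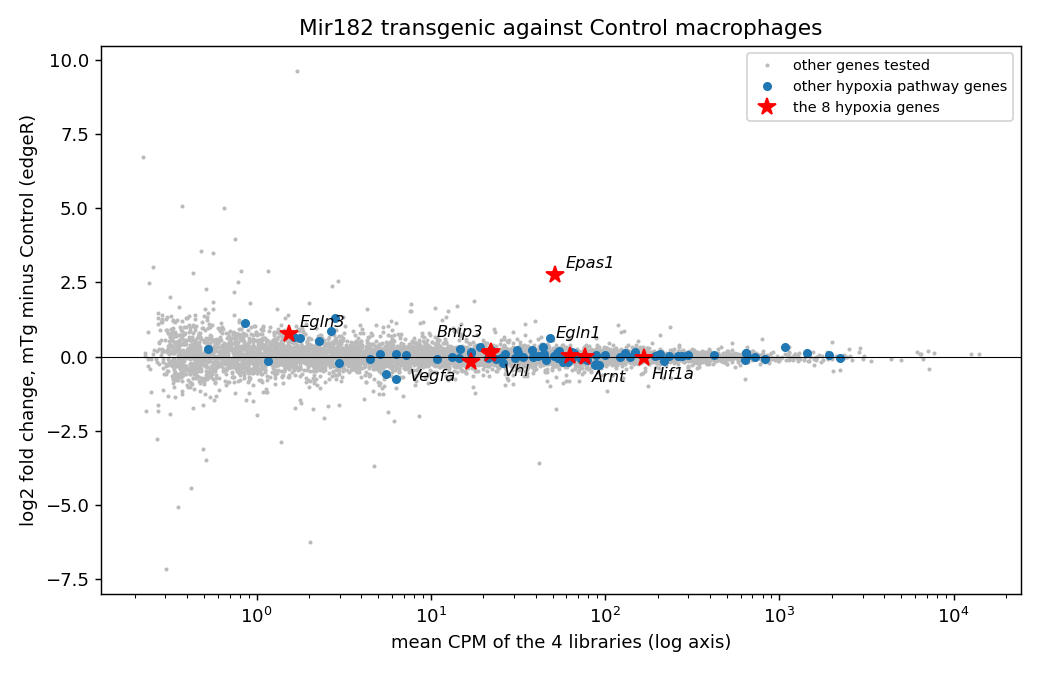
Log2 fold change of Mir182mTg minus Control by edgeR against the mean CPM of the 4 libraries on a log axis, for the 12063 genes tested. The 8 hypoxia genes are red stars and other genes of the pathway are blue points. Epas1 lies at 2.74 and the other 7 between -0.20 and 0.77.

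Some markers of other cell types also differed between Mir182mTg and Control. Of all genes tested, 32.2% did not overlap between these groups, in either direction. Of 10 endothelial genes 1 was higher without overlap, and of 10 stromal and fibroblast genes 0 were, with 0 lower in either list. Of 10 osteoclast genes, 6 were higher in both Mir182mTg libraries than in both Control libraries and 0 were lower, with sums of 176.9 and 154 CPM against 144 and 123 CPM. Of 9 neutrophil and granule genes, 8 were higher in both Mir182mTg libraries than in both Control libraries and 1, Mmp8, was lower. Their summed level was 107 and 100 CPM in Control and 159 and 146 CPM in Mir182mTg. It was also 155 and 140 CPM in WT basal and 28.7 and 26.3 CPM in WT after RANKL, and 158 and 148 CPM in Mir182ΔM/ΔM basal and 11.04 and 11.14 CPM in Mir182ΔM/ΔM after RANKL. The part of these cells or genes in the Epas1 values was not tested. Epas1 is also known as an endothelial gene. The endothelial list summed to 47.4 and 53.8 CPM in Control and 52.8 and 63.4 CPM in Mir182mTg, most of it Vwf, while Cldn5, Tek and Robo4 were at 0 in these 4 libraries. In bulk samples, fewer cells of a type and less RNA per cell cannot be told apart.

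After RANKL, Epas1 and Vegfa fell and Bnip3 rose in both genotypes. By limma, 3 of the 8 genes passed in WT, where 62.6% of all 11673 genes passed (5 of 8 and 81.8% with the replicate block). In Mir182ΔM/ΔM, 5 of 8 passed, where 56.8% of all genes passed (6 of 8 and 79% with the block). P-values measure the spread between these samples, which may be in part technical. Libraries of the same replicate number deviated together, so a result is given with its value under the block where the block changes it. In WT the median gene rose by 0.19 on the log2 scale when libraries were scaled by their total and was at -0.00 with TMM factors. Of the genes called in WT, 64.9% were higher with total scaling and 48.6% with TMM factors.

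Epas1 fell 4.09-fold in mean CPM in WT, with a log2 fold change of -1.90 (SE 0.13, adjusted p = 1.92e-05). In Mir182ΔM/ΔM it fell 6.42-fold, with a log2 fold change of -2.49 (SE 0.13, adjusted p = 6.75e-06). All 4 libraries with RANKL were below all 4 without it. Hif1a, the other α subunit, had smaller differences with overlapping libraries. Its log2 fold change was -0.24 in WT (95% interval -0.67 to 0.19, adjusted p = 0.291) and 0.16 in Mir182ΔM/ΔM (95% interval -0.27 to 0.59, adjusted p = 0.489). With the replicate block both passed, in opposite directions, with adjusted p of 1.39e-06 in WT and 2.26e-04 in Mir182ΔM/ΔM.

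Arnt (chr3:95434388-95497240, plus strand) was 91.1 and 84.2 CPM in WT basal, 86.0 and 77.7 in WT after RANKL, 87.0 and 83.5 in Mir182ΔM/ΔM basal and 70.4 and 67.3 in Mir182ΔM/ΔM after RANKL. The lowest libraries were those of Mir182ΔM/ΔM after RANKL, which overlapped with no other condition. Its fall in Mir182ΔM/ΔM was -0.30 on the log2 scale (SE 0.08, adjusted p = 0.0130). In WT the value was -0.10 (adjusted p = 0.305), which passed with the block (adjusted p = 0.0305) and with TMM factors, where it was -0.30 (adjusted p = 0.0103). The call in Mir182ΔM/ΔM was lost without Mir182ΔM/ΔM basal replicate 1 (adjusted p = 0.0740) or without Mir182ΔM/ΔM RANKL replicate 2 (adjusted p = 0.0702).

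Of the genes that act on HIF-α protein, Vhl had the clearest difference. Vhl (chr6:113623959-113631633, plus strand) was 21.9 and 25.0 CPM in WT basal and 21.1 and 25.4 CPM in WT after RANKL, which overlap. With TMM factors and the replicate block together it was called lower after RANKL in WT as well, and with TMM factors alone it was not. It was 19.5 and 23.7 CPM in Mir182ΔM/ΔM basal and 13.8 and 16.2 CPM after RANKL, which do not. The log2 fold change in Mir182ΔM/ΔM was -0.49 (SE 0.14, adjusted p = 0.0224) and in WT -0.02 (95% interval -0.36 to 0.33, adjusted p = 0.934). The former was lost without Mir182ΔM/ΔM RANKL replicate 1 (adjusted p = 0.121) or without Mir182ΔM/ΔM basal replicate 2 (adjusted p = 0.127), and had an adjusted p of 1.14e-06 with the block.

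Egln1 (chr8:124908587-124949324, minus strand) lay between 48.9 and 53.6 CPM in the 8 libraries of this experiment. Its log2 fold changes were -0.02 in WT (95% interval -0.18 to 0.13) and -0.10 in Mir182ΔM/ΔM (95% interval -0.25 to 0.05). With TMM factors the WT value was -0.23 and passed (adjusted p = 0.0171). Egln3 (chr12:54178981-54203860, minus strand) was at 1.57 to 2.29 CPM, from 40 to 62 reads, with log2 fold changes of 0.04 in WT (95% interval -0.28 to 0.37) and -0.15 in Mir182ΔM/ΔM (95% interval -0.47 to 0.17).

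Of the targets, Vegfa was 70.7 and 66.4 CPM in WT basal and 34.0 and 33.4 CPM after RANKL, which limma gave as -1.004 on the log2 scale (SE 0.09, adjusted p = 6.50e-05). In Mir182ΔM/ΔM it was 64.7 and 61.8 CPM basal and 23.3 and 19.9 CPM after RANKL, or -1.51 (SE 0.09, adjusted p = 1.06e-05). The fall was larger in Mir182ΔM/ΔM in both replicates. Bnip3 was 20.7 and 21.9 CPM in WT basal and 29.3 and 27.2 CPM after RANKL, a rise of 0.39 on the log2 scale (SE 0.08, adjusted p = 0.00409). With TMM factors this was 0.19 and no longer passed (adjusted p = 0.0743). In Mir182ΔM/ΔM it was 21.3 CPM in both basal libraries and 28.2 and 27.0 CPM after RANKL, a rise of 0.36 (SE 0.08, adjusted p = 0.00702). An antisense gene overlaps exons of Bnip3, and reads of the 2 cannot be told apart.

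**Figure D4:**
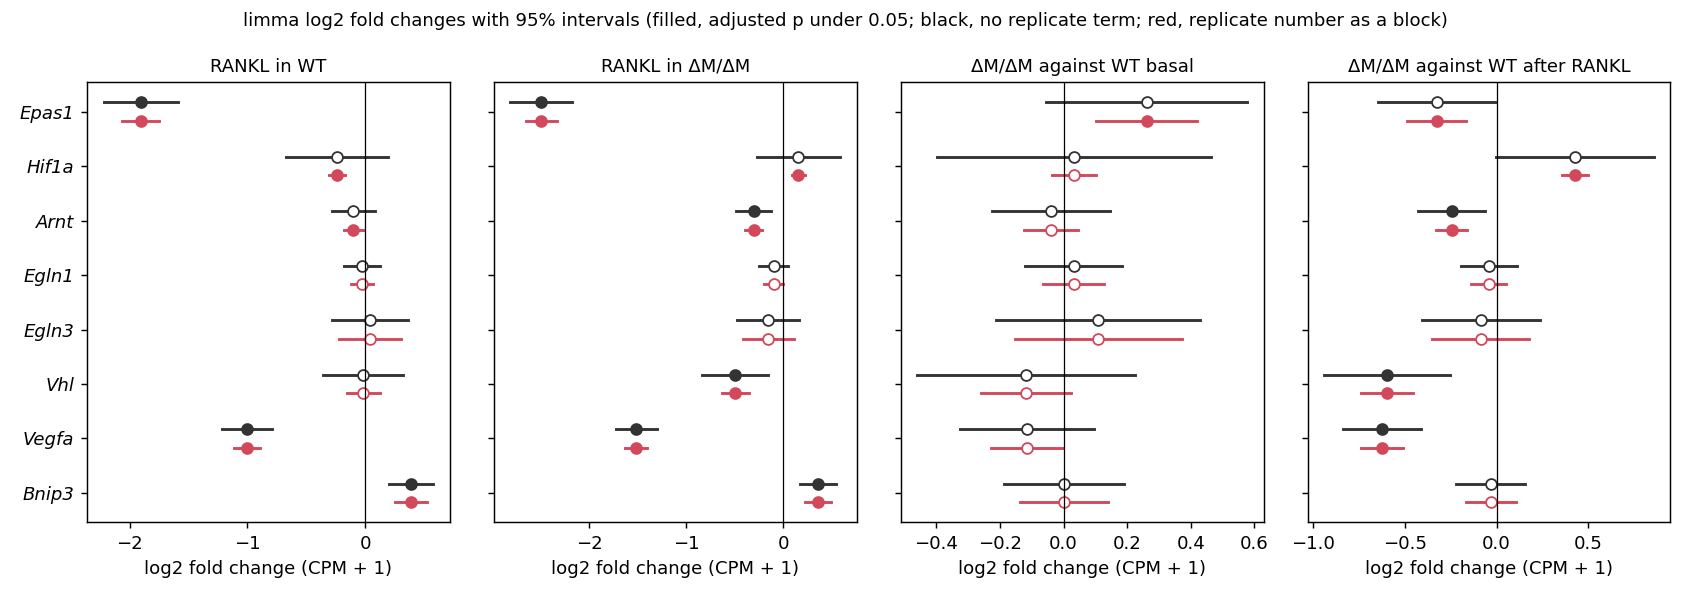
Log2 fold changes of the 8 genes by limma with 95% intervals in 4 comparisons, without a replicate term (black) and with the replicate block (red), where filled points passed an adjusted p of 0.05. Epas1 lies at -1.90 and -2.49 in the responses to RANKL and between -0.33 and 0.26 in the comparisons of genotypes (ΔM/ΔM, Mir182ΔM/ΔM).

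Without RANKL, 0 of the 8 genes passed between Mir182ΔM/ΔM and WT by limma or by edgeR on recovered reads, with 0 at an unadjusted p of 0.05 in either. limma called 3.82% of all genes, and 1 of the 8 genes and 31.2% of all genes with the block. The largest difference was that of Epas1, which was 1.21 times the WT mean with no overlap between groups. Its log2 fold change was 0.26 (95% interval -0.06 to 0.58, adjusted p = 0.419), and 0.26 with an adjusted p of 0.0120 with the replicate block. The endothelial list summed to 77.99 and 93.1 CPM in WT basal and 93.2 and 112 CPM in Mir182ΔM/ΔM basal, with 5 of its 10 genes higher and 1 lower without overlap, where 41.1% of all genes did not overlap. Vwf, most of these sums, overlapped (72.2 and 87.5 CPM against 83.6 and 102 CPM), and Tek, one of the 5, was at 0 in WT and at 0.0370 and 0.0373 CPM in Mir182ΔM/ΔM, under 3 reads. The part of endothelial cells in the Epas1 value was not tested. Egln1 and Bnip3, the other genes with the seed match, had values of 0.03 (95% interval -0.12 to 0.18) and 0.00 (95% interval -0.19 to 0.19).

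After RANKL, Vegfa, Vhl and Arnt were lower in Mir182ΔM/ΔM than in WT, 3 of 8 genes, where 45.2% of all genes passed (5 of 8 and 73.2% with the block). For Vegfa the log2 difference was -0.62 (SE 0.09, adjusted p = 0.00131). For Vhl it was -0.60 (SE 0.14, adjusted p = 0.0138), and this call was lost without Mir182ΔM/ΔM RANKL replicate 1 (adjusted p = 0.0824) or without WT RANKL replicate 2 (adjusted p = 0.0812). For Arnt it was -0.25 (SE 0.08, adjusted p = 0.0383), and with TMM factors -0.09 (adjusted p = 0.362). The Arnt call was also lost in 5 of the 8 fits that left out 1 library, with adjusted p from 0.0611 to 0.202. The median gene differed by -0.14 with total scaling and by -0.00 with TMM factors, and 31.6% of the calls were higher with the former against 50.9% with the latter.

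The values of the 2 α subunits had opposite signs in this comparison, and neither passed. Epas1 was 0.77 of its WT mean, with a log2 difference of -0.33 (95% interval -0.64 to -0.01, adjusted p = 0.0861) that passed with the block (adjusted p = 6.76e-04) and was -0.19 with TMM factors (adjusted p = 0.290). Hif1a was 1.35 times its WT mean, with a log2 difference of 0.43 (95% interval -0.00 to 0.86, adjusted p = 0.0972). Hif1a passed with the block (adjusted p = 3.24e-10) and with TMM factors, where it was 0.58 (adjusted p = 0.0382). For both genes the libraries of the genotypes did not overlap. Egln1, Egln3 and Bnip3 differed by -0.04, -0.09 and -0.03, and these signs turned with TMM factors.

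A test of the interaction asks whether the response to RANKL differed between genotypes. With all 8 libraries and no block, Vegfa was the 1 gene of the 8 that passed it, where 24.6% of all genes passed, with a difference of -0.51 on the log2 scale (SE 0.13, adjusted p = 0.0262). It was -0.34 with TMM factors (adjusted p = 0.107), and edgeR on recovered reads gave 0 of the 8, with 2 at an unadjusted p of 0.05. The Vegfa call was lost in 6 of the 8 fits that left out 1 library, with adjusted p from 0.0632 to 0.0911, and held without WT basal replicate 1 or Mir182ΔM/ΔM RANKL replicate 1. Without WT RANKL replicate 2, Epas1 passed in its place, at -0.73 (adjusted p = 0.0460). With the block 5 of the 8 genes passed, and 58.9% of all genes. Vegfa, Epas1 (-0.59, adjusted p = 9.24e-05), Vhl (-0.48, adjusted p = 2.39e-04) and Arnt (-0.21, adjusted p = 0.00430) fell further in Mir182ΔM/ΔM, and Hif1a (0.39, adjusted p = 4.18e-07) went the other way. With TMM factors and the block, Arnt no longer passed (adjusted p = 0.570) and the other 4 did. These values rest on the WT libraries after RANKL, whose Lyz2 level differs from the rest.

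Of 101 other pathway genes listed in the files, 90 passed the filter. Of these, 35 rose and 27 fell after RANKL in WT (31 and 36 with TMM factors). This is 68.9% of the 90, beside 62.6% of all genes tested. The median log2 fold change was 0.10 beside 0.19 for all genes tested. In Mir182ΔM/ΔM, 32 rose and 27 fell (30 and 31 with TMM factors). Without TMM factors this is 65.6% of the 90 beside 56.8% of all genes, with a median of 0.08 beside 0.05. The largest rises in WT were those of other VEGF family ligands and 2 hypoxia targets. Vegfc, a lymphangiogenic ligand, went from 0.153 and 0.0401 CPM to 25.8 and 30.8 CPM, and Pgf, placental growth factor, from 0.0306 and 0.0401 CPM to 23.5 and 25.4 CPM. Both basal values of Pgf in WT and 1 of Vegfc are below 3 reads, so the fitted changes depend on the pseudocount. edgeR on recovered reads gave 9.08 for Pgf, 7.82 for Vegfc, 5.00 for Vldlr and 4.38 for Bhlhe40, another order. Bhlhe40, a transcriptional repressor, rose by 4.50 on the log2 scale and Vldlr, a lipoprotein receptor, by 3.69. The largest falls were those of Nrp1, a VEGF co-receptor (-2.72), Hmox1, heme oxygenase (-2.69), P4ha2, a collagen prolyl hydroxylase (-1.65) and Ppfia4 (-1.58). In Mir182ΔM/ΔM the largest rises were Vegfc (5.57), Vldlr (4.35), Pgf (4.29) and Kdr (3.91), the receptor of VEGF-A, and the largest falls were Nrp1 (-2.75), P4ha2 (-2.60), Hmox1 (-2.52) and Ndrg1 (-2.10). Adjusted p by limma was 8.14e-05 or less for each of these, on the log2(CPM + 1) scale.

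The list of VEGF ligands and receptors had 4 of 7 tested genes higher and 2 lower after RANKL in WT, and 5 higher and 2 lower in Mir182ΔM/ΔM, while Vegfa itself fell. Vegfb, named here after its value was seen, fell by 0.93 in WT and by 1.45 in Mir182ΔM/ΔM on the log2 scale. Of the 18 tested genes of the HIF machinery, 7 rose and 1 fell in WT, and 6 rose and 4 fell with TMM factors. In Mir182ΔM/ΔM, 2 rose and 1 fell, and 1 rose and 3 fell with TMM factors. The gene that fell in WT was Hif1an, the asparagine hydroxylase of HIF, at -0.34, and it is named here after its value was seen. Of 33 hypoxia response targets, 13 rose and 13 fell in WT and 12 rose and 13 fell in Mir182ΔM/ΔM. Of 19 glycolysis targets, 8 rose and 5 fell in WT and 9 rose and 5 fell in Mir182ΔM/ΔM. The split in WT was 6 and 7 with TMM factors. Of 8 mitophagy genes, 3 rose and 3 fell in WT, and 2 rose and 3 fell in Mir182ΔM/ΔM. Of 5 macrophage effectors, 0 rose and 3 fell in WT, and 2 rose and 3 fell in Mir182ΔM/ΔM. Beside these list counts, 62.6% of all genes tested passed in WT and 56.8% in Mir182ΔM/ΔM, without TMM factors.

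**Figure D5:**
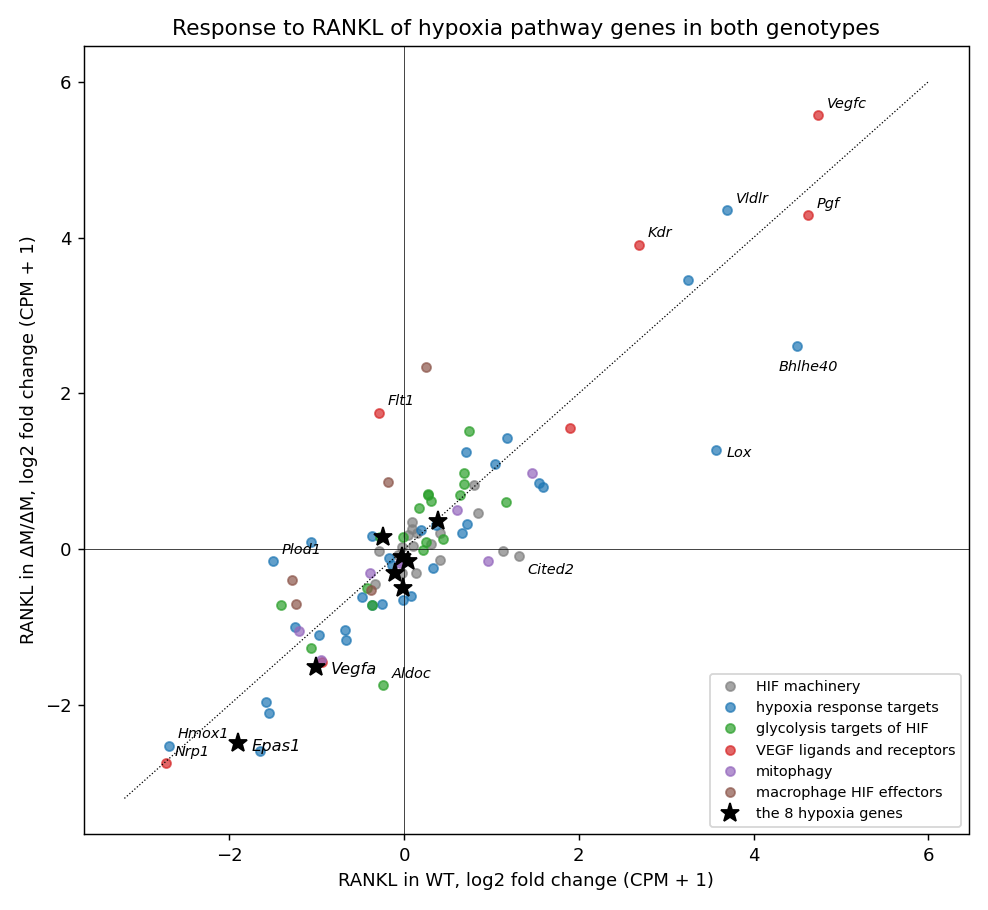
Log2 fold change after RANKL in WT (horizontal) and in Mir182ΔM/ΔM (vertical, axis marked ΔM/ΔM) for the other genes of the pathway that are reported here, coloured by list, and the 8 hypoxia genes as black stars. The dotted line marks equal responses. Epas1 and Vegfa lie below it at the lower left, and Lox lies below it at the right (3.57 in WT and 1.28 in Mir182ΔM/ΔM).

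Between the genotypes, 6 of the 90 genes passed without RANKL (2 higher, 4 lower), or 6.67% beside 3.82% of all genes. After RANKL 51 passed (23 higher, 28 lower), or 56.7% beside 45.2% of all genes, and 53 with TMM factors (32 higher, 21 lower). With the replicate block, 46.7% of the 90 passed without RANKL, beside 31.2% of all genes. The 6 without RANKL were Kdr (0.76) and Pfkp (0.31), higher in Mir182ΔM/ΔM, and Pink1 (-0.45), Csf1r (-0.37), Aldoc (-0.35) and Sqstm1 (-0.27), lower. With 1 library left out, 0 to 2 of the 90 genes passed in any fit. Aldoc, Csf1r, Pfkp and Sqstm1 were lost in all 8 such fits, Pink1 in 6 and Kdr in 1, the fit without Mir182ΔM/ΔM basal replicate 2 (adjusted p = 0.0507), and 42 of the 90 genes passed with the block. After RANKL, large differences were those of Flt1 (2.40) and Kdr (1.98), both VEGF receptors, and Plod1 (1.41), a lysyl hydroxylase, all higher in Mir182ΔM/ΔM. Of the 10 endothelial genes, Kdr among them, 6 were also higher and 1 lower without overlap after RANKL in Mir182ΔM/ΔM than in WT, where 71.6% of all genes did not overlap. Their sums were 119.7 and 119.5 CPM in Mir182ΔM/ΔM and 52.0 and 62.8 CPM in WT. Kdr made up most of the former, Cdh5 was at 4.14 and 3.42 CPM against 0.239 and 0.360 CPM, and Vwf was the lower gene, at 10.3 and 11.06 CPM against 27.2 and 35.9 CPM. The part of endothelial cells in these values was not tested. Lower were Lox (-2.13), lysyl oxidase, Aldoc (-1.86), Cited2 (-1.54), which competes with HIF-α for its coactivators, and Bhlhe40 (-1.38). Adjusted p was 7.55e-04 or less for each. By list, 8 glycolysis genes were higher and 2 lower of 19, 3 VEGF family genes were higher of 7, 9 hypoxia response targets were higher and 15 lower of 33, 5 genes of the HIF machinery were lower of 18, 5 mitophagy genes were lower of 8, and 3 macrophage effectors were higher and 1 lower of 5. With TMM factors the HIF machinery had 2 higher and 3 lower, mitophagy 0 higher and 2 lower, glycolysis 12 higher and 1 lower, the VEGF family 4 higher and 0 lower, hypoxia response targets 11 higher and 14 lower, and macrophage effectors 3 higher and 1 lower.

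In Mir182mTg against Control, edgeR called 0 of the 90 other genes tested in that experiment, with 15 at an unadjusted p of 0.05. DESeq2 called 1, Bhlhe40, at 40.2 and 35.6 CPM in Control and 59.6 and 57.3 CPM in Mir182mTg. With the block 30 of the 90 passed, or 33.3%. Of all genes tested, 0.257% passed without the block and 15.2% with it. The median of the lists was 0.03, beside -0.00 for all genes tested.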

How the data were processed

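RNA-seq was done on 12 libraries, 2 for each of 6 conditions, grouped from their labels. According to the methods and the submitters' processing notes, the authors made poly-A+ libraries (TruSeq), used TopHat for replicate 1 and HISAT2 for replicate 2 with mm10, and counted genes with HTSeq. The WT and Mir182ΔM/ΔM files hold CPM that the authors made with edgeR and deposited. All 115875 nonzero CPM values were whole multiples of 1 read within 0.01 read, as plain scaling by the library total gives. The Control and Mir182mTg files hold raw counts deposited by the authors. Replicate 1 files also hold RPKM, deposited by the authors from Cufflinks, which were used only for gene length. Of 24421 genes, 27 names had been turned into dates and were left out of the tests (0.215% of reads or less).

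CPM were tested as log2(CPM + 1) with limma (version 3.58.1, trend) in one fit of 8 libraries, keeping genes that reach 1 CPM in 2 libraries or more, and counts with edgeR (version 4.0.16, TMM, quasi-likelihood), in R 4.3.3. P-values were adjusted by Benjamini-Hochberg over all genes tested, with a threshold of 0.05 and no cut on fold change. Values are CPM per library or mean ± SD. For the members in Mir182mTg against Control no p-value is given, since Epas1 was chosen from it.

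Libraries with the same replicate number deviated together (r between 0.690 and 0.754 over the 6 pairs of loss of function conditions, 0.745 for the gain of function pair), and the labels give replicate 1 as poly-A RNA and replicate 2 as total RNA. Pairs across the 2 experiments deviated together as well. Their r ran from 0.686 (Mir182ΔM/ΔM after RANKL with Mir182mTg) to 0.748 (Mir182ΔM/ΔM basal with Control). The replicate number therefore marks a difference between sets of libraries, and does not show that samples were paired by animal. The replicate block was run as an alternative. Others were TMM factors or quantile normalization of CPM, edgeR on recovered reads (all genes came out whole, 7206 genes called for RANKL in WT against 7304 by limma), DESeq2 (version 1.42.0) for counts, other filters, a pseudocount of 0.1 and each library left out in turn. TMM factors together with the block were added after seeing the data. The scripts were tested on simulated data. The mean depth was 28246201 reads on genes, and both it and the 2 libraries per condition limit the precision.

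The members, lists and rules were chosen with earlier results of these data known. Other pathway genes are named if among the 4 largest rises or falls of a comparison past the threshold, with 1 direction in both replicates and at least 5 CPM in the higher group. Of these, 1 gene is not reported here, but the counts of the lists include it. Gene positions are from GENCODE vM21 (GRCm38). No protein sequences were used here.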

Additional observations from a re-analysis of the deposited data

Results flagged for a closer look

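The response to RANKL differed between Mir182ΔM/ΔM and WT by the interaction test (limma, adjusted p under 0.05) for Vegfa and 13 of the other pathway genes that the text names by its rule. The rule named genes by large changes in these same data, the interaction included, so the count of 13 is a description. Of all 90 other pathway genes tested, 37.8% passed (15 higher, 19 lower), beside 24.6% of all genes. The split turned to 21 higher and 13 lower with TMM factors. By edgeR on recovered reads it was 16 higher and 12 lower of 94. Vegfa was the 1 of the 8 hypoxia genes that passed, at -0.51 on the log2 scale (response in Mir182ΔM/ΔM minus response in WT). Of the other pathway genes, Flt1 differed by 2.04, Plod1 by 1.35, Kdr by 1.22, Vegfc by 0.83 and Vldlr by 0.66. For Vegfc, edgeR on recovered reads gave rises of 7.82 in WT and 7.76 in Mir182ΔM/ΔM, so its larger response was not seen there. Basal Vegfc was at 0.0401 to 0.299 CPM, where the value of 0.83 depends on the pseudocount. Lower responses in Mir182ΔM/ΔM were those of Lox (-2.30), Bhlhe40 (-1.89), Aldoc (-1.51), Cited2 (-1.40), P4ha2 (-0.94), Ndrg1 (-0.56), Pink1 (-0.48) and Pfkp (-0.32). Of the 10 endothelial genes, 6 were higher and 1 lower without overlap after RANKL in Mir182ΔM/ΔM, where 78% of all genes did not overlap. In WT, 2 were higher and 4 lower, where 79.6% of all genes did not overlap. Kdr was higher in both genotypes. Cdh5 (1.70 and 1.75 CPM to 4.14 and 3.42 CPM) and Emcn (0.259 and 0.261 CPM to 1.87 and 1.42 CPM) were among the 6. So were Tek (0.0370 and 0.0373 CPM to 0.131 and 0.0393 CPM) and Esam (0 and 0.149 CPM to 0.164 and 0.433 CPM), both near the level of 3 reads. Vwf was the lower gene in Mir182ΔM/ΔM (83.6 and 102 CPM to 10.3 and 11.06 CPM), and Egfl7 and Tie1 overlapped there. The part of such cells was not tested. Flt1 went from 1.22 and 0.821 CPM to 6.11 and 5.47 CPM in Mir182ΔM/ΔM, and from 0.428 and 0.721 CPM to 0.319 and 0.252 CPM in WT. Cited2 went from 86.1 and 72.7 CPM to 218 and 180 CPM in WT and from 84.0 and 61.3 CPM to 78.2 and 58.3 CPM in Mir182ΔM/ΔM. All these differences use the WT libraries after RANKL, which also differ from the other conditions of that experiment in Lyz2, and the part of that in these values was not tested. Groups of 2 libraries are too small for a test of single outlying libraries.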

How the results depend on the processing

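The alternatives change 1 choice at a time, apart from TMM factors with the replicate block and from edgeR on recovered reads and DESeq2, which also change the test, the scaling and the genes tested. With the replicate block, the calls among the 8 genes went to 5 (RANKL in WT), 1 (genotypes, basal), 5 (genotypes, after RANKL) and 5 (interaction), and with TMM factors and the block to 7, 1, 6 and 4. The interaction gave 0 by edgeR on recovered reads, 0 with TMM factors and 0 with quantile normalization. Of the other pathway genes, the basal comparison called 3 without a filter, 42 with the block and 40 with TMM factors and the block, the interaction 65 with either block, and Mir182mTg 1 by DESeq2, 2 without a filter and 30 with the block. Of all genes, the block and TMM factors with the block called 3643 and 3627 (basal), 8546 and 8096 (after RANKL) and 6878 and 6036 (interaction), and Mir182mTg had 124 by DESeq2, 136 without a filter and 1835 with the block. With each library left out, where the lone sample of an arm is assumed to vary like the others, the calls among the 8 genes, the other pathway genes and all genes ranged over 3 to 3, 58 to 62 and 6072 to 7130 (RANKL in WT), 4 to 5, 53 to 58 and 5438 to 6596 (RANKL in Mir182ΔM/ΔM), 0 to 0, 0 to 2 and 97 to 295 (basal), 1 to 3, 40 to 51 and 3621 to 5123 (after RANKL), 0 to 1, 22 to 27 and 1932 to 2241 (interaction), and 1 to 1, 0 to 2 and 56 to 165 (Mir182mTg). The member called in Mir182mTg was Epas1 throughout, which was chosen from that comparison, so its count there is a description. Uncalled values of members turned sign, in log2. By edgeR, TMM factors (the same with the block) and quantile normalization, Egln3 was -0.14, -0.089 and -0.26 (RANKL in WT) and 0.020, 0.011 and 0.18 (after RANKL), Bnip3 -0.014, -0.012 and -0.032 (basal), 0.12, 0.12 and 0.11 (after RANKL) and 0.14, 0.13 and 0.14 (interaction), and Egln1 0.11, 0.11 and 0.056 (after RANKL) and 0.095, 0.092 and 0.046 (interaction). Egln3 was 0.064 with quantile normalization (interaction). With each library left out, the range crossed 0 for Egln1 (-0.054 to 0.0053), Egln3 (-0.072 to 0.16) and Vhl (-0.15 to 0.11) for RANKL in WT, Hif1a (-0.014 to 0.33) for RANKL in Mir182ΔM/ΔM, Hif1a (-0.14 to 0.20), Arnt (-0.095 to 0.016), Egln3 (-0.039 to 0.26), Vhl (-0.25 to 0.018) and Bnip3 (-0.039 to 0.042) basal, Egln3 (-0.20 to 0.029) and Bnip3 (-0.085 to 0.022) after RANKL, and Bnip3 (-0.086 to 0.020) in the interaction. The cause of these changes was not tested. Depth limits Egln3, with 22 to 62 reads a library.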

Other observations

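The 2 sets of basal BMMs with unaltered Mir182, WT and Control, belong to different experiments and were not compared by a test. WT basal had 2.34 times the Epas1 and 3.77 times the Vegfa of Control in mean CPM, while Hif1a (0.868 times), Arnt (1.14 times), Egln3 (1.57 times), Egln1 (0.832 times), Vhl (1.12 times) and Bnip3 (1.03 times) were closer to 1. Lyz2 also differed between them, at 44.0 and 39.8 CPM in WT basal and 5783 and 6615 CPM in Control. Ndrg1, another hypoxia target, was at 130 and 127 CPM in WT basal and 49.3 and 45.8 CPM in Control, and Vegfb at 56.0 and 47.7 CPM and 23.4 and 20.2 CPM. Flt1 went the other way, at 0.428 and 0.721 CPM in WT basal and 8.97 and 6.88 CPM in Control. So did Pdgfb (11.2 and 10.9 CPM against 94.0 and 97.8 CPM) and Slc2a1 (45.3 and 51.3 CPM against 85.5 and 89.0 CPM). These other pathway genes are named after their values were seen and do not stand for their lists. So Epas1 in Control lay between its basal and its RANKL levels of the loss of function experiment, and Vegfa in Control was below its level in WT after RANKL.

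The 3 genes with a match to the miR-182 seed had log2 fold changes of 2.74 (Epas1), 0.01 (Egln1) and 0.17 (Bnip3) in Mir182mTg against Control. The value of Epas1 is the one the set was chosen by, and no test was made of the 3 as a group.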
